A study of Mus musculus with 9 samples.

Results

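The complement genes described here were the 9 rows of the dermal count table, of 52550 in all, whose symbol was C1ra, C1rb, C1s1, C4b, C2, Cfb, C3, Serping1 or C5ar1. They cover the C1 proteases, the components of the classical and alternative pathway convertases, the plasma inhibitor of C1 and the receptor for the fragment C5a. Messenger RNA was sequenced from dermal sheets of mouse ears in 9 libraries, 3 in each of 3 groups, all from C57BL/6 mice (C57BL/6J in the study's methods) that the labels give as wild type and 8 weeks old and the methods as male. VAS+H2O received vaseline on the ear for 5 days and ddH2O by gavage for 10 days. IMQ+H2O received imiquimod cream, an agonist of Toll-like receptor 7 that gives psoriasis-like inflammation, for 5 days with ddH2O for 10 days. IMQ+XYF received imiquimod for 5 days and 200 μl of the herbal decoction Xiao-Yin-Fang (XYF) at 23.3 mg/g for 10 days. The gavage began 5 days before the topical treatment in each group, and no group received vaseline with XYF. The study's methods speak of ear sheets from a pair of mice, and whether each library pooled mice was not given in the sources used here, so the p-values measure the spread between these libraries, which may in part be technical.

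Complement is a cascade of proteases that tags microbes and damaged cells, draws in leukocytes and can form a pore in membranes. In the classical pathway, C1q bound to antibody or other ligands activates C1r, which cleaves C1s, which in turn cleaves C4 and C2 to form a C3 convertase. In the alternative pathway, factor B takes the place of C2 on deposited C3b. Most circulating complement comes from the liver, while fibroblasts, macrophages and endothelial cells make many of the components locally in skin.

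The libraries held 28756305 to 79836881 counts, of which 8.21% to 14.3% were mitochondrial. Levels are given as CPM, the counts of a gene relative to the library total after scaling by edgeR's trimmed mean of M-values (TMM). A gene was called where the edgeR adjusted p was 0.05 or lower and the log2 fold change was at least 1 in size, over 22430 tested genes. All 10 fibroblast markers had counts in every library, with summed levels of 16755 to 27698 CPM in VAS+H2O, 11736 to 19012 in IMQ+H2O and 12396 to 19557 in IMQ+XYF. The sheets also held RNA of other tissues of the ear, with summed keratinocyte markers of 2426 to 15263 CPM, skeletal muscle markers of 123 to 2802 CPM and cartilage markers of 285 to 1774 CPM over the 9 libraries. Adipocyte markers summed to 267 to 806 CPM. Hepatocyte markers summed to 3.54 to 14.0 CPM, below all of the complement genes except C5ar1 and C1rb, whose ranges overlapped these sums. The library IMQ+XYF 2 stood apart in several results below, with the lowest endothelial marker sum (475 CPM). The values of C1s1, C4b, C2, Serping1, C9, C1qbp, Masp1, Cfd and the Cfb share are given with and without it.

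Of the 9 genes, 1 was called in each imiquimod group against VAS+H2O, beside 0.994% of all tested genes for IMQ+H2O and 1.20% for IMQ+XYF. It was Cfb in both, at 3.1 times the level of the vaseline ears in IMQ+H2O and 2.64 times in IMQ+XYF. In these bulk samples, more cells that make a transcript and more transcript per cell cannot be told apart. C3, C4b, C2, C1ra, C1s1, Serping1 and C5ar1 were not called in any comparison. C1rb was counted in 1 library of each group and stood at 0 in the other 6, so that its rows describe libraries rather than treatments. Between IMQ+XYF and IMQ+H2O, edgeR called 0 of the 9, beside 0.00892% of all tested genes.

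**Figure D1:**
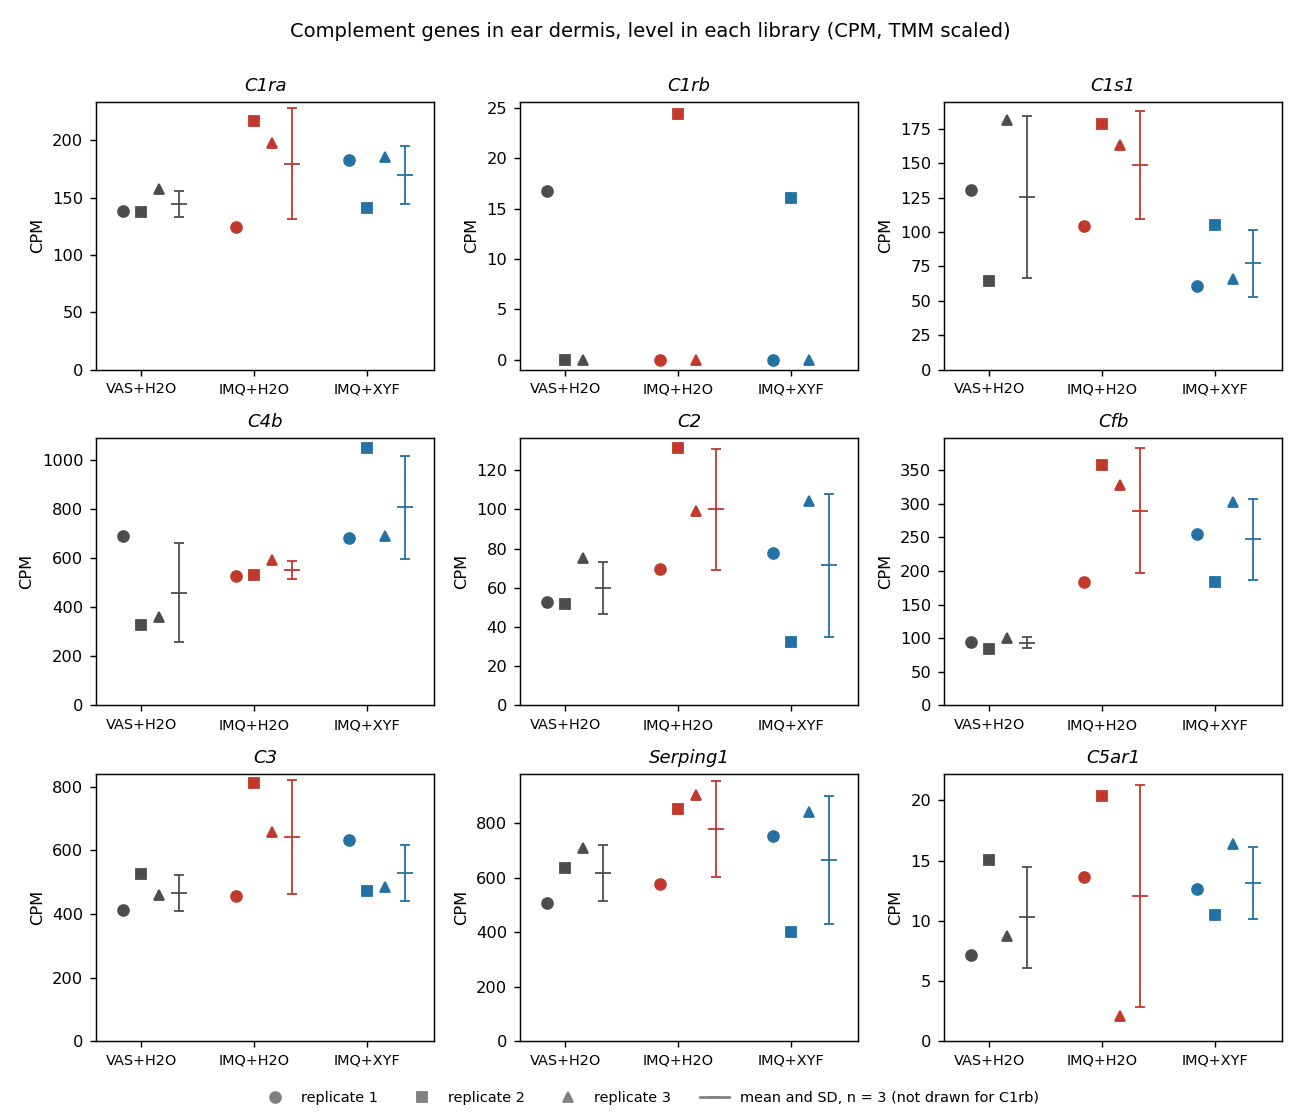
Level of each of the 9 complement genes in every library. The vertical axes give CPM (TMM scaled, each panel with its own range) and the symbols mark replicates 1 to 3 of each group, with the mean and SD beside them except for C1rb. Cfb stood at 84.7 to 101 CPM in VAS+H2O and at 184 to 358 CPM in the imiquimod libraries, while the other genes overlapped between VAS+H2O and at least 1 imiquimod group, and C1rb was above 0 in 3 libraries.

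The levels per kilobase of exon allow the genes to be set side by side. Averaged over the 9 libraries, Serping1 stood at 295 ± 73.2 CPM per kilobase (SD, n = 9), C4b at 106 ± 37.6, C3 at 106 ± 25.1 and Cfb at 74.4 ± 37.3. C1ra followed at 55.1 ± 10.8 CPM per kilobase, C1s1 at 37.4 ± 15.6, C2 at 19.9 ± 7.90, C5ar1 at 4.60 ± 2.11 and C1rb at 2.62 ± 4.04. The ranges of neighbouring genes in this order overlapped, except those of C2 (8.32 to 34.0) and C5ar1 (0.820 to 7.91). Serping1 overlapped C4b through IMQ+XYF 2, where Serping1 had its lowest value of 172 CPM per kilobase and C4b its highest of 184. These means mix the groups, and the order differed in VAS+H2O, where Cfb stood at 33.1 ± 2.86 CPM per kilobase (SD, n = 3), below C3 at 90.6 ± 10.9 and C1ra at 48.3 ± 3.78 in every library. C1ra varied least relative to its mean (coefficient of variation 19.5%), and Cfb varied most among the genes counted in all libraries (50.1%).

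C1ra (ENSMUSG00000055172, chr6:124512405-124523443, plus strand, GRCm38) and C1rb (ENSMUSG00000098470, chr6:124570294-124581171, plus strand) both encode the protease C1r. Their coding sequences in the GENCODE vM21 transcripts are 2121 and 2118 bases long, identical at 98.0% of the aligned bases, with an identical run of 757 bases. Of the 100-base windows of C1rb transcripts, 42.7% also occur in C1ra, so reads can be split between the copies, and how the counting treated such reads was not stated. The stretch in which the copies differ most is shown because only reads over such bases tell C1rb from C1ra. It holds the coding bases 1731 to 1880 of C1ra (chr6:124522587-124522736) and 1728 to 1877 of C1rb (chr6:124580633-124580782), 5′ to 3′ on the plus strand of GRCm38, with the 13 differing bases in capitals.
C1ra: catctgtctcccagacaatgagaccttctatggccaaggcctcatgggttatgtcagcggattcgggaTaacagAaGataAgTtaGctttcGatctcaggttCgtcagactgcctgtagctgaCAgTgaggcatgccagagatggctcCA
C1rb: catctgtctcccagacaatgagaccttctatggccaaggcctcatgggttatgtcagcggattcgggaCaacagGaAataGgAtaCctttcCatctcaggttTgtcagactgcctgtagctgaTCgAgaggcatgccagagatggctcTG

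C1rb had 692 counts in VAS+H2O 1, 1004 counts in IMQ+H2O 2 and 791 counts in IMQ+XYF 2. It had 0 counts in the other 6 libraries, which allows at most 3 counts or 0.0373 to 0.103 CPM by library, for counting error only. In CPM the 3 libraries stood at 16.8, 24.4 and 16.1. The largest gap between libraries was 8.7 on the log2 scale and made up 93.6% of the whole range, and C1rb was the only one of the 9 genes at 2 levels by the rule used, which 2.14% of all tested genes met. The rule asked for a gap of at least 1 on the log2 scale that takes at least 50% of the range, with 2 or more libraries on each side. In the 3 libraries with C1rb counts, C1ra held 89.1%, 89.9% and 89.7% of the summed C1ra and C1rb counts. No fold change is drawn from C1rb, since each group had 1 library with counts and 2 without. Of the 5 nearest tested protein-coding genes on each side of C1rb, none stood at 2 levels by this rule. They included C1ra at 125 to 217 CPM, C1s1 at 60.4 to 181 CPM and C1s2 at 0.995 to 3.13 CPM.

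C1ra stood at 138, 137 and 157 CPM in VAS+H2O, at 125, 217 and 197 CPM in IMQ+H2O and at 183, 140 and 186 CPM in IMQ+XYF. The groups overlapped, and IMQ+H2O 1 was the lowest of all 9 libraries. IMQ+H2O differed from VAS+H2O by a log2 fold change of 0.32 ± 0.20 (SE, edgeR adjusted p = 0.399) and IMQ+XYF from IMQ+H2O by -0.08 ± 0.20 (edgeR adjusted p = 0.894). With C1rb counts added, these became 0.33 and -0.10.

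C1s1 (ENSMUSG00000038521, chr6:124530345-124542359, minus strand) encodes C1s, the protease that cleaves C4 and C2, and is overlapped on the other strand by Gm16567. It stood at 131, 64.4 and 181 CPM in VAS+H2O, at 104, 178 and 163 CPM in IMQ+H2O and at 60.4, 105 and 65.9 CPM in IMQ+XYF. The 3 lowest libraries were IMQ+XYF 1, VAS+H2O 2 and IMQ+XYF 3, separated from the rest by 0.66 on the log2 scale, which was short of the rule for 2 levels. IMQ+XYF and IMQ+H2O overlapped narrowly, at 105 CPM in IMQ+XYF 2 and 104 CPM in IMQ+H2O 1. The log2 fold change of IMQ+XYF against IMQ+H2O was -0.95 ± 0.38 (SE), with an unadjusted p of 0.0344 and an adjusted p of 0.40 in edgeR, so that C1s1 was not called. Against VAS+H2O it was 0.24 ± 0.38 in IMQ+H2O (edgeR adjusted p = 0.745) and -0.70 ± 0.38 in IMQ+XYF (edgeR adjusted p = 0.368). Without IMQ+XYF 2 the values of IMQ+XYF were -1.21 against IMQ+H2O and -0.94 against VAS+H2O. They were still not called (edgeR adjusted p = 0.279 and 0.218).

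The ratio of C1s1 to C1ra counts, which was examined after the levels were seen, cancels the library size. It was 0.947, 0.469 and 1.15 in VAS+H2O, 0.837, 0.823 and 0.827 in IMQ+H2O and 0.331, 0.749 and 0.355 in IMQ+XYF. IMQ+H2O held nearly 1 value, while VAS+H2O and IMQ+XYF each held low and high libraries. The same 3 libraries stayed lowest when C1s2 was added to C1s1 and C1rb to C1ra, at 0.490, 0.343 and 0.361. C1s2, a close copy of C1s1 (8.78% of its 100-base windows also occur in C1s1), stood at 2.83 to 3.13 CPM in VAS+H2O, 0.995 to 2.0 CPM in IMQ+H2O and 1.04 to 2.30 CPM in IMQ+XYF. Its log2 fold change was -1.0 in IMQ+H2O and -0.91 in IMQ+XYF against VAS+H2O (edgeR adjusted p = 0.159 and 0.20).

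**Figure D2:**
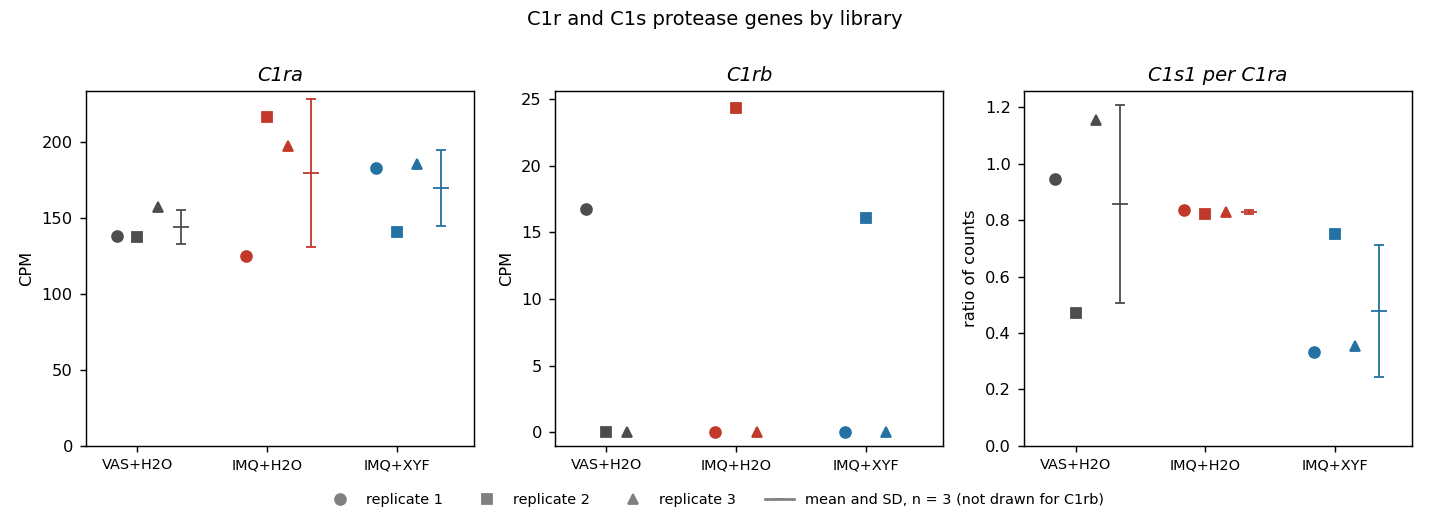
Levels of C1ra and C1rb in CPM and the ratio of C1s1 to C1ra counts in each library, with group means and SD (n = 3) except for C1rb. C1rb was above 0 in 1 library of each group, and the ratio of C1s1 to C1ra was 0.469 or lower in VAS+H2O 2, IMQ+XYF 1 and IMQ+XYF 3 and from 0.749 to 1.15 in the other 6.

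Serping1 (ENSMUSG00000023224, chr2:84765387-84775444, minus strand) encodes C1 inhibitor, which binds and inactivates C1r and C1s. It stood at 508, 636 and 710 CPM in VAS+H2O, at 577, 852 and 904 CPM in IMQ+H2O and at 754, 400 and 841 CPM in IMQ+XYF. The groups overlapped, with IMQ+XYF 2 the lowest of the 9 libraries. In edgeR the log2 fold change was 0.33 ± 0.28 (SE) in IMQ+H2O against VAS+H2O (edgeR adjusted p = 0.535) and -0.23 ± 0.28 in IMQ+XYF against IMQ+H2O (edgeR adjusted p = 0.775). Without IMQ+XYF 2 the latter was 0.06, a change of sign.

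C4b (ENSMUSG00000073418, chr17:34728380-34743882, minus strand) encodes C4, the first substrate of C1s. It stood at 691, 327 and 359 CPM in VAS+H2O, at 525, 531 and 593 CPM in IMQ+H2O and at 683, 1048 and 688 CPM in IMQ+XYF. All IMQ+XYF libraries lay above all IMQ+H2O libraries, as was the case in 9.22% of tested genes, while VAS+H2O 1 reached the level of IMQ+XYF 1 and 3. The log2 fold change of IMQ+XYF was 0.55 ± 0.29 (SE) against IMQ+H2O (edgeR adjusted p = 0.480) and 0.81 ± 0.29 against VAS+H2O, where the unadjusted p was 0.0212 and the adjusted p 0.179. C4b was thus called in neither. Without IMQ+XYF 2 these values were 0.35 and 0.62 (edgeR adjusted p = 0.654 and 0.266). Without VAS+H2O 1 the value against VAS+H2O became 1.23, and over the 9 libraries left out in turn it ranged from 0.62 to 1.23 (edgeR adjusted p 0.0550 to 0.401). Cartilage markers had summed levels of 998 to 1774 CPM in VAS+H2O, 285 to 466 in IMQ+H2O and 560 to 1690 in IMQ+XYF. Like C4b, they were highest in VAS+H2O 1 and IMQ+XYF 2 within those groups. In IMQ+H2O against VAS+H2O they went the other way from C4b. There all 8 tested cartilage markers were lower, with a median log2 fold change of -1.98, while that of C4b was 0.26. The part of these markers in the C4b levels was not tested.

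C4a (ENSMUSG00000015451), the neighbouring copy of C4b, is known as the mouse gene of the sex-limited protein but is annotated in GENCODE vM21 as a processed transcript. It stood at 35.3, 16.9 and 18.8 CPM in VAS+H2O, at 23.7, 3.76 and 25.9 CPM in IMQ+H2O and at 31.4, 54.1 and 34.8 CPM in IMQ+XYF. C4b held 95.0% to 95.8% of the summed C4b and C4a counts in 8 libraries and 99.3% in IMQ+H2O 2, where C4a had 155 counts. Of the 100-base windows of C4b, 15.2% also occur in C4a. The C4b share was 95.1% ± 0.0604 (SD, n = 3) in VAS+H2O, 96.9% ± 2.05 in IMQ+H2O and 95.3% ± 0.274 in IMQ+XYF. By two-sided exact permutation tests the difference between IMQ+H2O and VAS+H2O had p = 0.1, the smallest that 3 against 3 libraries can give, and 0.3 after Benjamini-Hochberg adjustment over the 12 tests of such shares. With the copies summed, the log2 fold change of C4b was 0.58 for IMQ+XYF against IMQ+H2O.

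C2 (ENSMUSG00000024371, chr17:34862604-34898265, minus strand) encodes the protease of the classical C3 convertase. It stood at 52.9, 51.7 and 75.1 CPM in VAS+H2O, at 69.8, 131 and 99.2 CPM in IMQ+H2O and at 77.6, 32.2 and 104 CPM in IMQ+XYF. The groups overlapped, and IMQ+XYF 2 was again the lowest library. Zbtb12 lies across C2 on the other strand, and whether the counting used strand was not stated. For C2 the log2 fold change was 0.74 ± 0.40 (SE) in IMQ+H2O against VAS+H2O (edgeR adjusted p = 0.317), -0.49 ± 0.39 in IMQ+XYF against IMQ+H2O (edgeR adjusted p = 0.635) and 0.25 ± 0.39 in IMQ+XYF against VAS+H2O (edgeR adjusted p = 0.799). Without IMQ+XYF 2 the last 2 were -0.11 and 0.65, so the call did not change.

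Cfb (ENSMUSG00000090231, chr17:34856374-34862518, minus strand) lies just downstream of C2 and encodes factor B, the protease of the alternative pathway C3 convertase. It stood at 95.0, 84.7 and 101 CPM in VAS+H2O, at 184, 358 and 329 CPM in IMQ+H2O and at 255, 184 and 303 CPM in IMQ+XYF. Every imiquimod library lay above every vaseline library, as in 15.1% of tested genes for IMQ+H2O and 11.7% for IMQ+XYF, and the imiquimod groups overlapped. The log2 fold change was 1.63 ± 0.26 (SE) in IMQ+H2O against VAS+H2O, a 3.1-fold difference (edgeR adjusted p = 0.0301). It was 1.40 ± 0.26 in IMQ+XYF against VAS+H2O, a 2.64-fold difference (edgeR adjusted p = 0.0411), and -0.23 ± 0.26 in IMQ+XYF against IMQ+H2O (edgeR adjusted p = 0.741). The first 2 comparisons share the VAS+H2O libraries.

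The size of the Cfb difference moved little when single libraries were left out, from 1.45 to 1.88 for IMQ+H2O and from 1.23 to 1.62 for IMQ+XYF against VAS+H2O on the log2 scale. The call did not hold throughout. For IMQ+H2O it was lost without IMQ+H2O 2 or 3 or any of the VAS+H2O libraries (edgeR adjusted p 0.0804 to 0.119), and for IMQ+XYF it was kept only without IMQ+H2O 1 or IMQ+XYF 2. The DESeq2 Wald test on all 9 libraries gave 1.65 (adjusted p = 7.3e-07) and 1.43 (adjusted p = 2.83e-05), and called 3.88% and 3.46% of the genes it tested.

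Of 7 tested neutrophil markers, 4 were called higher in IMQ+H2O and 3 in IMQ+XYF against VAS+H2O, beside 0.646% and 0.695% of all tested genes, while edgeR called 0 of 9 macrophage and 0 of 8 endothelial markers. DESeq2 called 2 macrophage markers in IMQ+H2O and 1 in IMQ+XYF against VAS+H2O. Of the 8 endothelial markers, 7 were higher in every IMQ+H2O library than in every vaseline library, as in 15.1% of tested genes. The summed level of 8 neutrophil markers was 6.65 to 22.4 CPM in VAS+H2O, 208 to 663 in IMQ+H2O and 171 to 476 in IMQ+XYF. That of 9 macrophage markers was 677 to 1099, 832 to 1145 and 852 to 897 CPM, and that of 8 endothelial markers 608 to 971, 1243 to 1317 and 475 to 1163 CPM. Their part in the Cfb difference was not tested.

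As Cfb and C2 are neighbours and encode proteases of matching function, the share of Cfb in their summed counts was taken in each library. It was 64.2%, 62.1% and 57.3% in VAS+H2O, 72.5%, 73.1% and 76.8% in IMQ+H2O and 76.6%, 85.1% and 74.3% in IMQ+XYF. The vaseline libraries lay below all others. The mean shares were 61.2% ± 3.56 (SD, n = 3), 74.1% ± 2.35 and 78.7% ± 5.66 (75.5% without IMQ+XYF 2), and both imiquimod groups differed from VAS+H2O with p = 0.1 in two-sided exact permutation tests, the smallest p this design allows, or 0.3 after Benjamini-Hochberg adjustment over 12 tests. An annotated transcript unit, Gm20547, runs through both genes on their strand, and 66.9% of the 100-base windows of Cfb and 35.5% of those of C2 occur in it. Gm20547 had 516 counts in VAS+H2O 3, 620 in IMQ+XYF 2, 19 in VAS+H2O 2 and at most 8 in the other 6 libraries. When its counts were added to both genes, a setting chosen after the data were seen, Cfb was still called, at 1.60 and 1.39 against VAS+H2O on the log2 scale.

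C3 (ENSMUSG00000024164, chr17:57203970-57228136, minus strand) encodes the component at which the pathways meet. It stood at 413, 525 and 460 CPM in VAS+H2O, at 456, 812 and 657 CPM in IMQ+H2O and at 632, 471 and 486 CPM in IMQ+XYF. IMQ+H2O 1 lay within the vaseline range and the groups overlapped. The edgeR log2 fold change was 0.46 ± 0.21 (SE) in IMQ+H2O against VAS+H2O with an unadjusted p of 0.0605 and an adjusted p of 0.259. It was -0.28 ± 0.21 in IMQ+XYF against IMQ+H2O (edgeR adjusted p = 0.617) and 0.18 ± 0.21 in IMQ+XYF against VAS+H2O (edgeR adjusted p = 0.719).

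C5ar1 (ENSMUSG00000049130, chr7:16246743-16259540, minus strand) encodes the receptor through which C5a attracts neutrophils and macrophages. It stood at 7.13, 15.1 and 8.72 CPM in VAS+H2O, at 13.7, 20.3 and 2.11 CPM in IMQ+H2O and at 12.6, 10.5 and 16.4 CPM in IMQ+XYF. The groups overlapped, and the spread was widest in IMQ+H2O, which held both the highest library and the lowest. For C5ar1 the log2 fold change was 0.22 ± 0.65 (SE) in IMQ+H2O and 0.35 ± 0.64 in IMQ+XYF against VAS+H2O (edgeR adjusted p = 0.870 and 0.832).

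In IMQ+H2O 3, where C5ar1 had 108 counts, the neighbouring receptor gene C5ar2 (ENSMUSG00000074361), which encodes a second C5a receptor, had 93 counts, against 1 to 6 counts in the other 8 libraries. C5ar2 did not pass the filter on low counts and was not tested. The transcripts of these genes share none of their 100-base windows. Adding the C5ar2 counts to C5ar1, a setting chosen after the data were seen, gave a log2 fold change of 0.30 in IMQ+H2O against VAS+H2O.

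C1rb is left out of the counts over the group, since no fold change is drawn from it. The other 8 genes had a log2 fold change above 0 in IMQ+H2O against VAS+H2O, with a median of 0.32 beside -0.02 over all tested genes. In that comparison 1 of 8 had groups that did not overlap, against 31.5% of tested genes. In IMQ+XYF against IMQ+H2O DESeq2 also called 0 of these 8, against 1.14% of the genes it tested, and 1 of 8 had groups that did not overlap, against 18.0%. C1s1 alone had an unadjusted edgeR p under 0.05 there, against 11.7% of tested genes. The median was -0.23 beside 0.01 over all tested genes, with 6 values below 0 and those of C4b and C5ar1 above 0. In IMQ+XYF against VAS+H2O 1 of 8 had groups that did not overlap, against 22.1%, and the median was 0.24 beside -0.02. These comparisons share libraries, so that their values are not independent of each other.

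**Figure D3:**
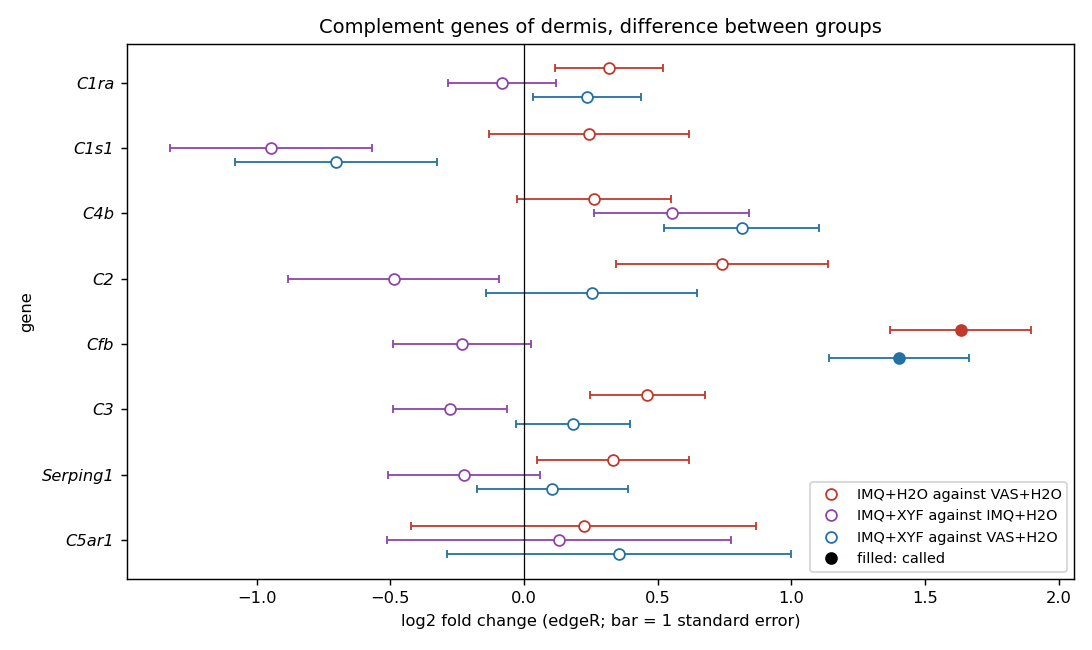
Log2 fold change of 8 of the genes in the 3 comparisons, with bars of 1 standard error from edgeR. Filled points mark calls, which were made for Cfb at 1.63 in IMQ+H2O and 1.40 in IMQ+XYF against VAS+H2O. C1rb, counted in 1 library of each group, is not drawn.

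The 9 genes did not move as a block over the libraries. Over the 9 libraries, which share group and library effects, C2 and Serping1 had the highest Pearson correlation of log2 CPM (r = 0.928), followed by C3 and C1ra (r = 0.820) and C1ra and Serping1 (r = 0.809). C4b had lower values with each of the others, with r from -0.38 with Serping1 to 0.49 with C1rb. The same held for C1rb, for C1s1 (r up to 0.390, with C1rb) and for C5ar1 (r up to 0.146, with C1rb). C1s1 had r = 0.206 with C1ra, with which its protein forms a complex, and r = -0.43 with C5ar1.

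The genes whose levels followed each member most closely, among 14507 genes with a mean of at least 1 CPM, are given as a description over 9 libraries. Cfb went with Tarm1, a receptor of myeloid cells (r = 0.982), and with H6pd and Slc35c1 (r = 0.982 and 0.981). C3 went with the Fc receptor Fcgr3 (r = 0.970), Ifi30 and Ly96 (r = 0.936 and 0.934). For C4b they were Cpne8 (r = 0.968), Cyp21a2-ps (r = 0.962) and Timp4 (r = 0.957). The closest genes to C2 were Col18a1, Gpr1 and Tmem88b (r = 0.963, 0.961 and 0.957), and those to Serping1 were Tspan11, Acap1 and Timd4 (r = 0.965, 0.955 and 0.953). C1ra went with Coro1b, Ly9 and Lyrm1 (r = 0.973, 0.962 and 0.940), and C1s1 with Zfp768, Plekhm2 and Btbd6 (r = 0.934, 0.925 and 0.923). C1rb went with Amigo1, Dnajc16 and Mterf1a (r = 0.941, 0.896 and 0.892), and C5ar1 with Gabpb1, BE692007 and Wnt5b (r = 0.898, 0.886 and 0.885). All these genes were picked as the highest of 14507 values, so a high r follows in part from the selection. None of these r was tested, and those of C1rb rest on the few libraries in which it was counted.

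Of 52 other complement genes listed by role, 37 passed the filter on low counts. In IMQ+H2O against VAS+H2O 3 were called higher and 0 lower, against 0.646% and 0.348% of all tested genes. They were Cfp, Itgam and Itgb2. The same 3 were called higher in IMQ+XYF against VAS+H2O, where Fcna was called lower, against 0.695% and 0.508% of all tested genes. In IMQ+XYF against IMQ+H2O edgeR called 0 of 37, beside 0.00892% of all tested genes, with 11 at an unadjusted p under 0.05, beside 11.7%. DESeq2 called Fcna and C9, beside 1.14% of the genes it tested. Against VAS+H2O it called 4 in each imiquimod group, beside 3.88% and 3.46% of the genes it tested. Masp1, named here after its values were seen, stood at 15.9 to 20.8 CPM in VAS+H2O, 35.6 to 40.7 in IMQ+H2O and 15.5 to 37.4 in IMQ+XYF. Its log2 fold change was 1.04 in IMQ+H2O against VAS+H2O, where edgeR did not call it. Without IMQ+XYF 2 that value was 1.06 (edgeR adjusted p = 0.0116), which met both limits. In IMQ+XYF against VAS+H2O it was 0.63 with all libraries and 0.97 without IMQ+XYF 2 (edgeR adjusted p = 0.0112), below the limit of 1.

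Cfp encodes properdin, which stabilises the alternative pathway convertase and is made by neutrophils and macrophages. It stood at 20.4, 24.4 and 19.8 CPM in VAS+H2O, at 47.6, 68.4 and 58.2 CPM in IMQ+H2O and at 52.3, 51.7 and 55.5 CPM in IMQ+XYF. The vaseline libraries lay below all others. Cfp had a log2 fold change against VAS+H2O of 1.43 ± 0.14 (SE) in IMQ+H2O (edgeR adjusted p = 0.00767) and 1.30 ± 0.14 in IMQ+XYF (edgeR adjusted p = 0.0137). The former call held with each library left out in turn (adjusted p 0.00714 to 0.0423), and the latter was lost without VAS+H2O 3 (adjusted p = 0.0573). Of the other alternative pathway genes, Cfd, the gene of factor D, was at 20.4 to 89.4 CPM over all libraries. Its log2 fold change was 0.18 in IMQ+H2O against VAS+H2O and -0.05 in IMQ+XYF against IMQ+H2O. Without IMQ+XYF 2, its lowest library, the latter was 0.37 (edgeR adjusted p = 0.720), a change of sign.

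Itgam and Itgb2 encode the chains of complement receptor 3, an integrin of neutrophils and macrophages that binds the C3 fragment iC3b. Itgam stood at 4.68, 12.3 and 10.1 CPM in VAS+H2O, at 41.7, 66.6 and 49.9 CPM in IMQ+H2O and at 80.3, 68.2 and 46.5 CPM in IMQ+XYF. The log2 fold change of Itgam against VAS+H2O was 2.55 ± 0.36 (SE) in IMQ+H2O and 2.85 ± 0.37 in IMQ+XYF (edgeR adjusted p = 0.0247 and 0.0173). Gm49368, deposited under the same symbol and sharing 64.3% of the 100-base windows of Itgam, had 2195 counts in IMQ+H2O 3, and with it added the values became 2.6 and 2.56, a setting chosen after the data were seen. The log2 fold change of Itgb2 was 1.49 ± 0.18 and 1.18 ± 0.18 (edgeR adjusted p = 0.0164 and 0.0273). The neutrophil marker sums given above were also higher in every imiquimod library than in every vaseline library. Within IMQ+H2O the sum, Itgam and Itgb2 were all lowest in IMQ+H2O 1 (208, 41.7 and 44.8 CPM). The sum was highest in IMQ+H2O 3 and IMQ+XYF 3 (663 and 476 CPM). Itgam was highest in IMQ+H2O 2 and IMQ+XYF 1, and Itgb2 in IMQ+H2O 2 and IMQ+XYF 2 (67.5 and 47.8 CPM). This order of Itgam leaves out Gm49368, which stood at 42.8 CPM in IMQ+H2O 3. In IMQ+XYF 3 Itgam and Itgb2 were the lowest of their group (46.5 and 43.0 CPM). The part of the neutrophil markers in these differences was not tested. The call of Itgam in IMQ+H2O was lost without IMQ+H2O 2 or 3 or VAS+H2O 2 or 3, and that of Itgb2 without IMQ+H2O 2 or 3 or VAS+H2O 3 (adjusted p up to 0.0852 and 0.0765). In IMQ+XYF the call of Itgam was lost without IMQ+XYF 1 or VAS+H2O 2 or 3, and that of Itgb2 without IMQ+XYF 1 or 3 or any VAS+H2O library (adjusted p up to 0.0839 and 0.109).

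The C1q chains, made mainly by macrophages, were higher in every IMQ+H2O library than in every VAS+H2O and every IMQ+XYF library. C1qa stood at 70.5, 81.9 and 66.2 CPM in VAS+H2O, at 96.5, 157 and 109 CPM in IMQ+H2O and at 84.6, 74.7 and 86.2 CPM in IMQ+XYF. C1qb stood at 73.0 to 99.4, 124 to 201 and 87.8 to 119 CPM, and C1qc at 89.6 to 126, 132 to 204 and 93.8 to 123 CPM. None of the differences was called. The log2 fold changes for IMQ+H2O against VAS+H2O were 0.73, 0.87 and 0.60 for C1qa, C1qb and C1qc (edgeR adjusted p = 0.0793, 0.0716 and 0.134). Those for IMQ+XYF against IMQ+H2O were -0.56, -0.58 and -0.58 (edgeR adjusted p = 0.364, 0.379 and 0.367). Groups that did not overlap were found in 15.1% of tested genes in the first direction and 8.74% in the second, and both comparisons share the IMQ+H2O libraries. Endothelial markers moved alike, with 7 of 8 higher in IMQ+H2O than in VAS+H2O and 7 of 8 lower in IMQ+XYF than in IMQ+H2O without overlap. The adipocyte marker sums were 288 to 497 CPM in VAS+H2O, 662 to 806 in IMQ+H2O and 267 to 616 in IMQ+XYF. These sums do not speak for all 6 adipocyte markers, of which 3 were higher and 3 lower in each of these comparisons. The median log2 fold changes of the 6 were -0.01 and 0.04. The macrophage sums given above overlapped between the groups. Of the 9 macrophage markers, 6 were higher and 3 lower in IMQ+H2O against VAS+H2O, with a median log2 fold change of 0.44. In IMQ+XYF against IMQ+H2O 1 was higher and 8 were lower, with a median of -0.28. The part of these markers in the C1q levels was not tested.

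Among the anaphylatoxin receptors, C3ar1, the receptor for C3a, stood at 23.9, 26.7 and 14.2 CPM in VAS+H2O, at 33.8, 50.7 and 38.0 CPM in IMQ+H2O and at 28.1, 25.9 and 30.4 CPM in IMQ+XYF. Its log2 fold change was 0.92 ± 0.24 (SE) in IMQ+H2O against VAS+H2O (edgeR adjusted p = 0.0883) and -0.54 ± 0.24 in IMQ+XYF against IMQ+H2O (edgeR adjusted p = 0.423). C1qbp, listed with the receptors though not a receptor of anaphylatoxins, is named here after its values were seen. It passed the adjusted p in IMQ+H2O against VAS+H2O (0.0178 in edgeR) with a log2 fold change of 0.88, below the limit of 1. In IMQ+XYF against VAS+H2O the log2 fold change was 0.86. Without IMQ+XYF 2 that value was 1.01 (edgeR adjusted p = 0.00382), which met both limits.

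Of the lectin pathway, Mbl1 and Mbl2 had 0 counts in all libraries. Fcna, the gene of ficolin A, stood at 3.01, 5.95 and 3.63 CPM in VAS+H2O, at 2.76, 2.55 and 2.93 CPM in IMQ+H2O and at 1.26, 0.936 and 1.46 CPM in IMQ+XYF. The 3 groups did not overlap. Its log2 fold change was -1.78 ± 0.29 (SE) in IMQ+XYF against VAS+H2O (edgeR adjusted p = 0.0326), a call that was kept only without VAS+H2O 1 or IMQ+XYF 2 among the 9 libraries left out in turn (adjusted p up to 0.0965). Against IMQ+H2O the value was -1.17 ± 0.29 (edgeR adjusted p = 0.363).

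Of 7 terminal pathway genes 5 were tested, and edgeR called 0 in any comparison, beside 0.994% of all tested genes for IMQ+H2O and 1.20% for IMQ+XYF against VAS+H2O and 0.00892% between the imiquimod groups. Hc, the gene of C5, stood at 0.371 to 2.67 CPM over the 9 libraries, and its precursor protein is the source of the C5a bound by C5ar1. C7 stood at 7.38 to 68.9 CPM. C9 stood at 2.01, 1.56 and 2.16 CPM in VAS+H2O, at 0.689, 0.776 and 0.351 CPM in IMQ+H2O and at 0.796, 4.58 and 2.47 CPM in IMQ+XYF, with log2 fold changes of -1.67 ± 0.59 (SE) and 2.11 ± 0.59 for IMQ+H2O against VAS+H2O and IMQ+XYF against IMQ+H2O (edgeR adjusted p = 0.163 and 0.364). Without IMQ+XYF 2 the latter was 1.46 (edgeR adjusted p = 0.290).

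None of the regulators was called in any comparison by edgeR, with 3 of 9 plasma regulators and 9 of 11 membrane regulators tested. Cfi, the gene of factor I, did not exceed 0.172 CPM and was not tested. Of the membrane regulators, Cd55 stood at 35.5 to 72.0 CPM and Cr1l, the mouse gene of Crry, at 74.7 to 97.3 CPM over all libraries. Cd59a, which blocks the membrane pore, stood at 2 levels by the rule above, at 34.9 to 51.5 CPM in VAS+H2O 1 and 2 and IMQ+H2O 1 and 3, and at 12.9 to 16.0 CPM in VAS+H2O 3, IMQ+H2O 2 and all IMQ+XYF libraries. Its log2 fold change was -1.48 ± 0.46 (SE) in IMQ+XYF against IMQ+H2O (edgeR adjusted p = 0.364).

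**Figure D4:**
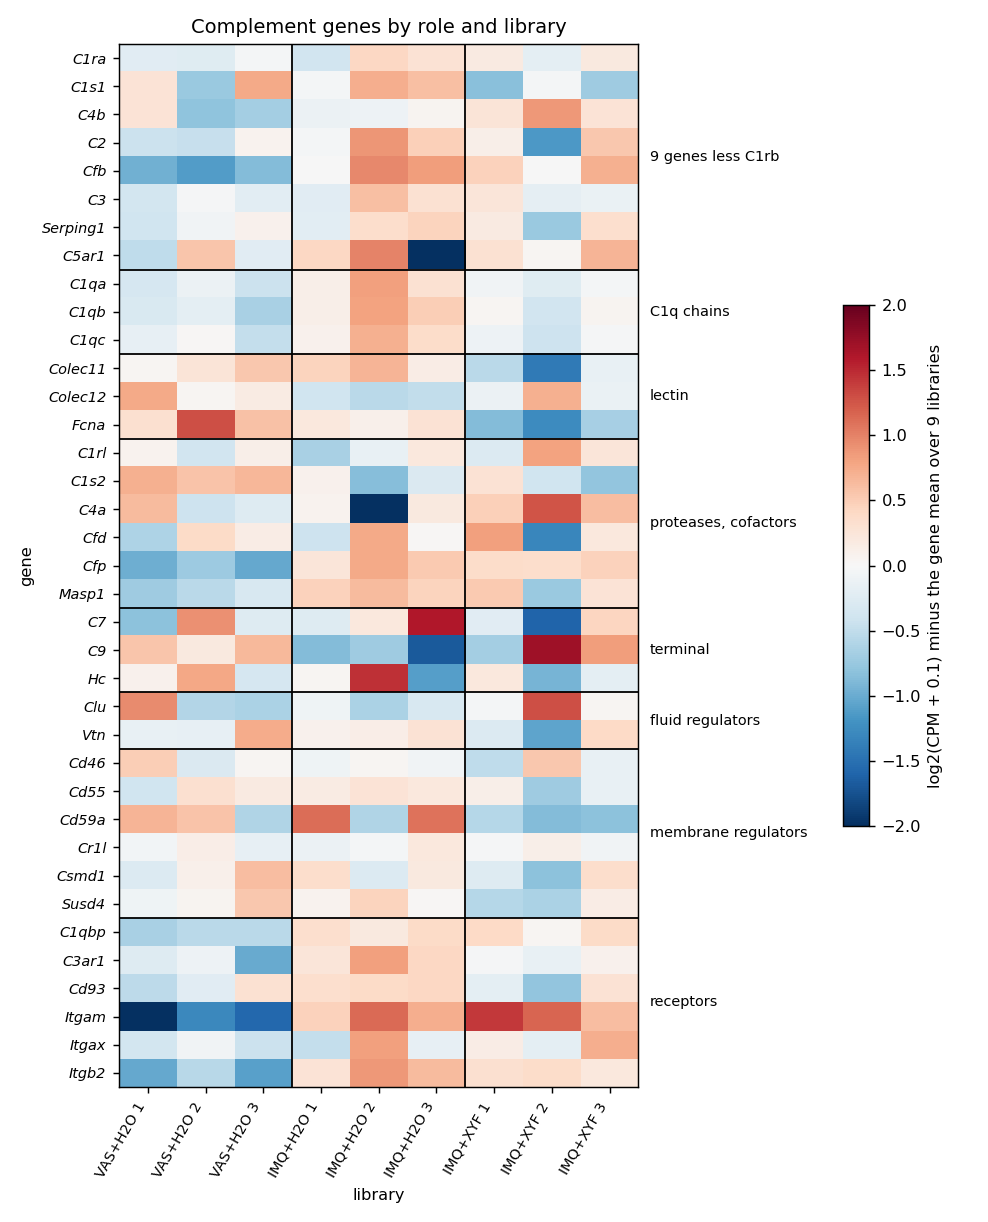
Level of 37 complement genes with a mean of at least 1 CPM in each library, grouped by role. The colour gives log2(CPM + 0.1) minus the mean of the gene over 9 libraries, cut at 2 in either direction, with C1rb left out. Cfb, Cfp, Itgam and Itgb2 were below their means in the 3 VAS+H2O libraries, and the column of IMQ+XYF 2 differed from its group in C4b, C2 and Serping1.

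Promoters of 5 of the 9 genes (C3, C1ra, C1rb, C1s1 and C5ar1) were in the RefSeq table of GRCm38.p6, and those of C4b, Cfb, C2 and Serping1 were not analysed here. Each window ran from 250 bases before to 50 bases after the start and was searched on both strands. The letters TTGCNNAA, a form of the C/EBP site, were found in C3 (first base 45 bases before the start), C1ra, C1rb and 1 of 2 windows of C1s1, and in 10.8% of all 32851 promoters. The letters TTCNNNGAA, a STAT site that reads alike on both strands, were found in C1ra and C1rb and in 8.30% of promoters. The interferon-stimulated response element and the NF-kB consensus, present in 3.44% and 8.46% of promoters, were not found in these windows. C5ar1 held none of the 4. These matches are letters in the windows and show no binding.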

How the data were processed

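Per the labels and the study's methods, the authors aligned reads from TruSeq libraries with STAR 2.5 to mouse GRCm38. They deposited whole-number counts per Ensembl gene. The counting tool, its treatment of reads with several alignments and its use of strand were not given in the sources used here. The submitters' processing notes also name FastQC, Cuffnorm and DESeq 1.22.1, and the methods StringTie and DESeq2.

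All 9 libraries were fitted with edgeR 4.0.16 in R 4.3.3 (TMM, filterByExpr, quasi-likelihood test, 1 coefficient per group), with Benjamini-Hochberg adjustment over 22430 genes. DESeq2 1.42.0 was an alternative. The code was tested on simulated data. The 9 genes, the lists of roles and markers and the rules were chosen with earlier results of these data known. Named were the 9 genes, other complement genes that were called or listed beforehand by role, and the 3 genes most correlated with each gene (log2 CPM, prior count 2). Replicate numbers did not pair the libraries, since 1 of 9 same-numbered pairs had a correlation of deviations over 0.1 (range -0.183 to 0.125). Windows of 100 bases came from GENCODE vM21 transcripts. Values of some listed genes are not reported here.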

Additional observations from a re-analysis of the deposited data

How the results depend on the processing

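Each count of calls was recomputed under other settings. For IMQ+H2O against VAS+H2O, 223 genes were called, with 945 by the DESeq2 Wald test, 496 in the 6 libraries of the comparison alone and 25 to 455 with single libraries left out. The numbers for IMQ+XYF against VAS+H2O were 270, 701, 33 and 12 to 592. For IMQ+XYF against IMQ+H2O they were 2, 223, 1 and 0 to 4, and 0 with upper quartile factors. With the replicate block, which the shared numbers of the labels allow but the pairing check did not bear out, the counts were 86, 54 and 0, and 0 of the 9 complement genes were called in any comparison (Cfb adjusted p = 0.0653 and 0.0857 in edgeR). The count of complement genes called was 0 to 1 with single libraries left out, against VAS+H2O in both imiquimod groups, and 0 for IMQ+XYF against VAS+H2O in its 6 libraries alone. The cause was not tested.

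No called value changed sign. Among the 9 genes, Cfp, Fcna, Itgam and Itgb2, some uncalled log2 fold changes did with single libraries left out, and are given by their range. For IMQ+XYF against IMQ+H2O these were C1ra (-0.29 to 0.078), Serping1 (-0.43 to 0.063), C5ar1 (-0.35 to 0.76) and Cfp (-0.25 to 0.0085), and Itgam became -0.034 with Gm49368 added. For IMQ+H2O against VAS+H2O they were C1s1 (-0.074 to 0.61) and C5ar1 (-0.40 to 0.75), and for IMQ+XYF against VAS+H2O C2 (-0.12 to 0.65) and Serping1 (-0.097 to 0.42). The fitted values of C1rb followed the library left out, from -11.2 to 11.7 for IMQ+H2O and -11.2 to 11.1 for IMQ+XYF, each against VAS+H2O, and from -11.7 to 11.1 between the imiquimod groups. The value for IMQ+H2O was -4.84 with the replicate block.

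Each group held 3 libraries, and a difference that was not called is not shown to be absent. Counts of genes that share sequence with a copy or an overlapping unit depend on how reads were assigned.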
